A study of Homo sapiens with 8 samples.

Results

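Accessible chromatin was examined at 10 genes of the Krüppel-like factor (KLF) family in HUDEP-2 cells, an established human erythroid progenitor line, in cultures given PBS and in cultures given an acute Kit stimulus. A called ATAC-seq peak was taken into the set when its summit lay inside the gene body of KLF1, KLF2, KLF3, KLF4, KLF6, KLF9, KLF10, KLF13, KLF16 or KLF17, or within 50 kb of one of the start sites annotated for these genes. Peaks entered the set by position and not by any measured value, whereas the genes were chosen with earlier results of these data known. After peaks that shared at least 1 bp were merged across libraries into regions, 68 of 43654 regions belonged to the set. The PBS lists held 56 (replicate 1) and 61 (replicate 2) of the peaks behind them, and the SCF lists 55 (replicate 1) and 56 (replicate 2).

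All cells in the analysed libraries carried the control guide sgControl, had been grown with SCF, EPO, dexamethasone and doxycycline, and were then held for 5 h without growth factors in medium with bovine serum albumin. One group then received SCF (stem cell factor, which binds and activates the receptor Kit) at 50 ng/ml for 1 h, and the other received phosphate-buffered saline (PBS). Each group held 2 libraries, made from 50000 cells each and described by the study as biological duplicates, and the 4 samples with the guide sgEGR1 were not analysed here. Each library is a bulk sample of 1 cell line, so more accessible DNA per cell and more cells with accessible DNA cannot be told apart.

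KLF proteins bind GC-rich and CACCC-type DNA through zinc fingers at their C terminus and differ in the activators or repressors that they recruit. KLF1 is the erythroid member, an activator of the adult β-globin gene and of many other red cell genes. KLF2, KLF4, KLF6, KLF9 and KLF10 are known from other cell types as genes that growth factors, stress or hormones switch on quickly, and KLF10 was first described as a gene induced by transforming growth factor β. KLF3, KLF13 and KLF16 are widely expressed and act mainly as repressors. KLF17 is best known from the early embryo, and its locus was one that the study singled out. The study describes the gene as a regulator of the erythroid cell cycle and places a Kit-activated element in one of its introns.

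Regions are named by gene and by the distance of the summit from the nearest start site of that gene, negative upstream. Each is described by 3 quantities. The summit pileup is the number of fragments over the summit, recovered from the deposited values. The pileup over background divides it by the lowest local background of the library, an estimate of its genome-wide level. Fold enrichment, as deposited, compares the pileup with the background around the peak. Percentile ranks run from the lowest (0) to the highest (100) peak of a library. The genome-wide background, which follows depth, was 1.05, 1.5, 0.944 and 0.885 fragments in PBS replicates 1 and 2 and SCF replicates 1 and 2, and the lists held 30240, 33616, 29269 and 33324 peaks. The weakest peak listed in each had a pileup of 6, 7, 6 and 5, so a weaker site could not be detected. As a check of the cell type, 5 of 8 erythroid marker genes had a region within 1 kb of a start site in every library (GATA1, TAL1, EPOR, SLC4A1 and HBB), against 3 of 4 myeloid, 1 of 3 lymphoid, 1 of 3 megakaryocyte and 1 of 3 non-blood marker genes. HBG1 had none, and ALAS2 and HBA1 had one only in PBS replicate 2. The summed level of the myeloid regions ranged from 61.2 to 67.3 times background in PBS and from 97.2 to 112 in SCF libraries. On this scale 36.1% of all regions called in all 4 libraries were higher in both SCF libraries, with a median SCF to PBS ratio of 1.11. In PBS replicates 1 and 2 and SCF replicates 1 and 2, SPI1 had 23, 25, 51 and 38. CD14 had 16, 14, 29 and 26, and CSF1R had 22, 28, 33 and 33. The 5 erythroid genes called in every library summed to 371 to 375 in PBS, with both SCF libraries at 376. The part of other cell types in the results was not tested.

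The windows below are 201 bp of GRCh37 around the summit, read on the plus strand, and are shown because the results turn on them. They are the KLF1 promoter, the KLF6 promoter, a KLF13 region that holds an AP-1 word, a KLF16 region with a pair of composite erythroid words, and 1 of the regions assigned to KLF17. Capitals mark words searched on both strands. The AP-1 word was TGANTCA, that of the EGR proteins was GCGTGGG, and GATA factors were searched with AGATAA and also, in the same count, with the variant TGATAA. The CACCC word was CCNCACCC, the CRE word was TGACGTCA and the ETS word was CCGGAAGT. The E-box–GATA composite was CTGNNNNNNNNNGATAA, or with 1 base less between its parts CTGNNNNNNNNGATAA, and it can contain a GATA word.
KLF1 −0.3 kb, chr19:12998179-12998379: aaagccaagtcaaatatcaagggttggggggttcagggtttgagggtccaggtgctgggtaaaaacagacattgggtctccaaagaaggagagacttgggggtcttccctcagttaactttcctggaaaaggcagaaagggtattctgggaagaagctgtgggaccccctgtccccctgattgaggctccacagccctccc
KLF6 −0.2 kb, chr10:3827567-3827767: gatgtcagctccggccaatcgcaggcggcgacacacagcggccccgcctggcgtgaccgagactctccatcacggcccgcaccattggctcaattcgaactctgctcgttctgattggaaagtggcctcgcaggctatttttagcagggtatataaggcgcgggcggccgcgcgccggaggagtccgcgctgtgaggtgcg
KLF13 −23.3 kb, chr15:31595591-31595791: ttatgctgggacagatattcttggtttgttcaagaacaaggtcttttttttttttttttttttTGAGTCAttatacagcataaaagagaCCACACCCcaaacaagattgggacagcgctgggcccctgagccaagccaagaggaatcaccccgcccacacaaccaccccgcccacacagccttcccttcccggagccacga
KLF16 +25.9 kb, chr19:1836900-1837100: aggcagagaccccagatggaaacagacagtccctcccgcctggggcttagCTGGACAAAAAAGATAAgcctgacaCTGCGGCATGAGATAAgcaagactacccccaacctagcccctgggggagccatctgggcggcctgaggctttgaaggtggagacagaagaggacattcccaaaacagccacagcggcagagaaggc
KLF17 −25.0 kb, chr1:44559434-44559634: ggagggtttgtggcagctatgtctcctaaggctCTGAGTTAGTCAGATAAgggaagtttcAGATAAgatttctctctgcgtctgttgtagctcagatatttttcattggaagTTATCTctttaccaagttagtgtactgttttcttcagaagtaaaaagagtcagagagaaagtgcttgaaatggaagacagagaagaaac

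The loci differed in how many regions they held. KLF16 had 15, KLF13 had 14, KLF1 had 13, KLF2, KLF3, KLF6 and KLF9 had 5 each, KLF10 had 3, KLF17 had 2 and KLF4 had 1. Of the 68 regions, 46 (67.6%) were called in all 4 libraries, whereas 51.3% of all 43654 regions were. The count was 11 of 13 at KLF1, 14 of 19 at the induced genes, 21 of 34 at KLF3, KLF13 and KLF16, and 0 of 2 at KLF17. The 22 regions called in fewer libraries were narrower, with a median width of 428 bp against 866 bp, and weaker, with a median pileup of 14.1 times background (range 6.67 to 61.0).

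**Figure D1:**
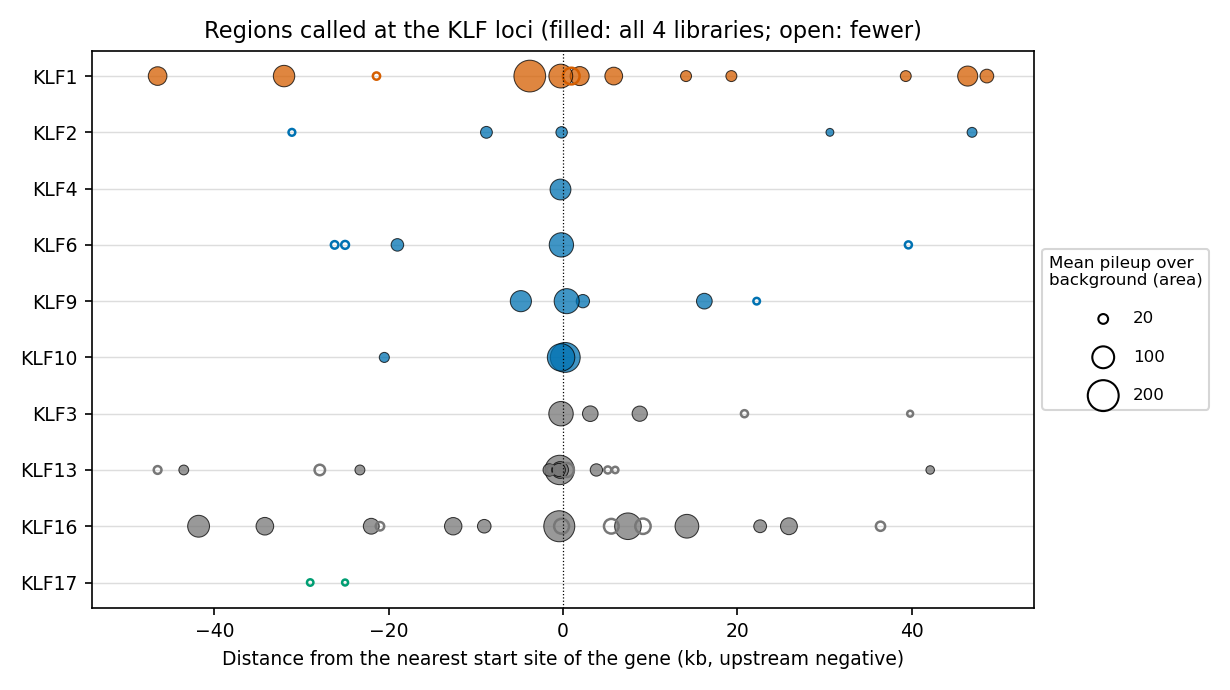
Each circle is a region, placed by the distance of its summit from the nearest start site of the gene (x axis, kb) in the row of its gene, with an area that follows its mean pileup over background in the libraries that call it. Filled circles were called in all 4 libraries and open circles in fewer, and the KLF17 row holds only 2 small open circles, 29.0 and 25.0 kb upstream.

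By annotation, 30 of the 68 summits fell within 1 kb of where some gene starts, 20 in introns and 2 in exons of coding genes, 6 in introns of non-coding genes and 10 between genes. The member's own start sites accounted for 15 regions, 12 of them called in every library. A different coding or non-coding gene started within 1 kb of 15 further regions, and 8 of these were in the KLF1 window, a gene-dense stretch of chromosome 19 that also holds the start sites of MAST1, HOOK2, DNASE2, GCDH, SYCE2 and FARSA. For 44 regions the nearest coding start site was that of a member, which was the case for only 3 of the 13 at KLF1 and 3 of the 15 at KLF16. Of the remaining regions, KLF16 +7.4 kb and KLF16 +9.2 kb lay inside the KLF16 gene, and the others were assigned to a KLF gene by distance only.

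KLF1 (ENSG00000105610, chromosome 19, 12995236 to 12998015, minus strand) had 3 regions of its own. The promoter region, KLF1 −0.3 kb (12997883 to 12998711), had summit pileups of 125 and 185 with PBS and 107 and 105 with SCF. Relative to background these were 120 and 123 with PBS and 113 and 119 with SCF, so the groups did not overlap but lay within a narrow range. On this scale both PBS libraries lay above both SCF libraries in 6.71% of all regions called in all 4 libraries. The region KLF1 +1.9 kb, in an intron (12995781 to 12996439), had pileups of 78, 90, 84 and 70 in the same order. KLF1 +0.9 kb (12996921 to 12997412) was not listed in PBS replicate 1 and had 83 fragments in the other PBS library and 55 and 54 with SCF. Relative to background these were 55.3 with PBS and 58.3 and 61.0 with SCF.

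These KLF1 regions were high in pileup and low in fold enrichment. The promoter ranked at 93.8 on average by pileup over background, but at 13.0, 22.9, 6.44 and 11.9 by fold enrichment in PBS replicates 1 and 2 and SCF replicates 1 and 2. KLF1 +1.9 kb ranked at 85.0 by pileup and between 0.928 and 5.84 by fold enrichment. KLF1 +0.9 kb ranked between 0.0239 and 0.0446 by fold enrichment, at the bottom of each list that held it. The local background around the promoter was 26.5 to 28.7 times the genome-wide level and stood between percentiles 99.7 and 99.8 of all peaks in each library. It was 28.8 to 30.6 times at KLF1 +0.9 kb and 21.9 to 23.4 times at KLF1 +1.9 kb. The local background was recovered from the deposited fold enrichment and p-value, and fold enrichment divides by it. A high pileup with a low fold enrichment therefore entails a high local background, which is not a separate observation.

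The combination of high pileup and low fold enrichment was also found beyond the gene itself. The median local background of the KLF1 regions was 8.77, 11.5, 8.94 and 12.9 times the genome-wide level in the 4 libraries, compared with 2.79, 2.91, 2.91 and 3.48 at the induced genes and 2.20, 2.00, 2.43 and 2.25 over all peaks. In every library that called them, 6 of 13 KLF1 regions had a local background above percentile 95 of all peaks, as did 4 of 19 regions at the induced genes, 10 of 34 at KLF3, KLF13 and KLF16, and 0 of 2 at KLF17. That percentile was chosen after the values were seen. The median KLF1 region ranked at 79.0, 82.5, 82.8 and 84.4 by pileup but at 29.5, 29.8, 14.7 and 25.6 by fold enrichment. At the induced genes both medians were closer, at 62.7, 64.0, 59.5 and 64.0 by pileup and 58.1, 53.7, 51.7 and 49.5 by fold enrichment. KLF3, KLF13 and KLF16 had 67.4, 73.7, 71.9 and 73.1 by pileup and 43.4, 34.8, 39.8 and 57.4 by fold enrichment. The combination was not confined to KLF1, since KLF13 +0.4 kb ranked at 71.4 by pileup and 0.192 by fold enrichment in the 2 libraries that called it. Regions called in all 4 libraries also had it, with mean ranks of 74.9 and 8.31 at KLF3 +3.1 kb and 63.9 and 1.98 at KLF16 +22.6 kb. At an induced gene, KLF9 +2.3 kb had 65.9 and 8.27.

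**Figure D2:**
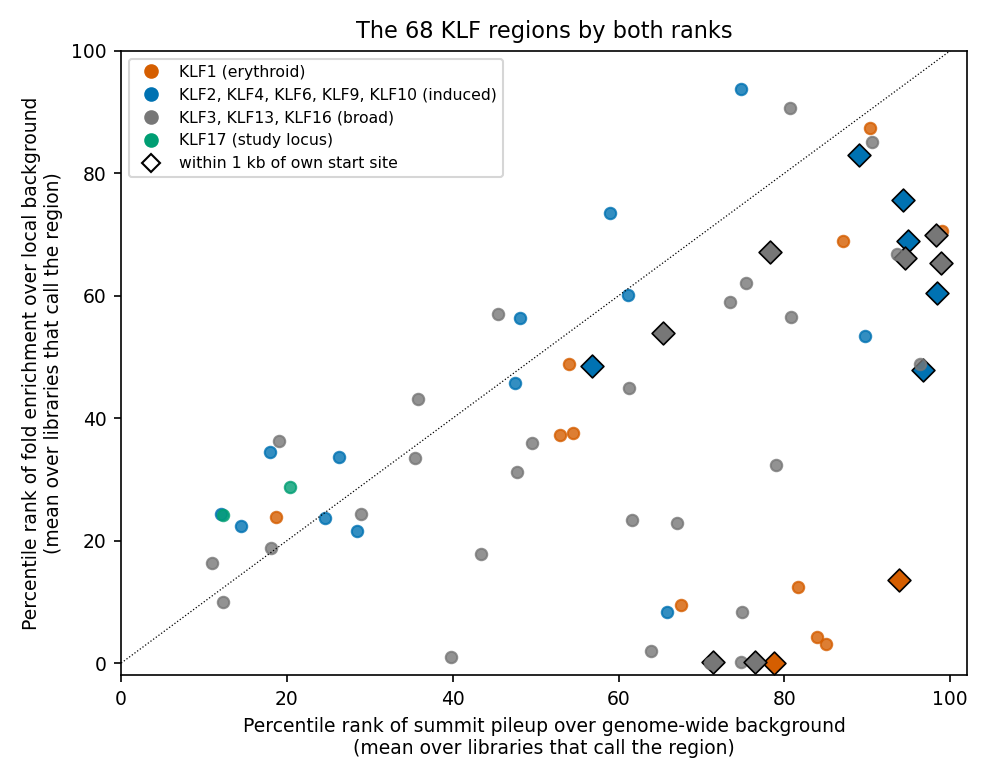
Each point is 1 of the 68 regions, with its percentile rank by summit pileup over genome-wide background on the x axis and by fold enrichment over local background on the y axis, both averaged over the libraries that call it. Points on the dotted line have equal ranks, diamonds lie within 1 kb of the gene's own start site, and both KLF1 diamonds sit far below the line, at a pileup rank of 93.8 and a fold enrichment rank of 13.6 for the promoter.

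The region of highest mean pileup over background and the region of highest mean fold enrichment rank in the KLF1 window were at start sites of neighboring genes. KLF1 −3.8 kb, at the start of GCDH, a mitochondrial enzyme of lysine breakdown, had pileups of 204 and 293 with PBS and 232 and 183 with SCF, and the groups overlapped by fold enrichment rank (67.2 and 69.8 against 76.7 and 68.8). Over background it had 195 and 195 with PBS and 246 and 207 with SCF. KLF1 −32.0 kb, at the start of SYCE2, a meiotic synaptonemal complex gene, had pileups of 99, 121, 99 and 92, or 94.7, 80.7, 105 and 104 times background. Over background both SCF libraries were thus higher at KLF1 −3.8 kb and KLF1 −32.0 kb, as in 36.1% of all regions called in all 4 libraries. KLF1 −32.0 kb had the highest mean fold enrichment rank of the window, 87.5. It was also the only KLF1 region with an EGR word, read as CCCACGC on the plus strand, 41 bp to the left of the summit.

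Promoter regions of the induced genes spanned a wide range. KLF10, on chromosome 8, had the strongest, KLF10 +0.2 kb, with pileups of 216 and 272 with PBS and 173 and 156 with SCF, or 207, 181, 183 and 176 times background. KLF9 +0.4 kb had 163, 176, 105 and 124, and KLF6 −0.2 kb, upstream of the start site, had 147, 186, 115 and 96. Over background, both PBS libraries lay above both SCF libraries at KLF6 −0.2 kb (as in 6.71% of all regions), and the groups overlapped at KLF10 +0.2 kb and KLF9 +0.4 kb. KLF4 −0.3 kb, the only region at the KLF4 locus, had 94, 121, 79 and 96. KLF2 −0.2 kb was the weakest, with 24 and 43 with PBS and 30 and 23 with SCF.

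Set in order of the mean pileup over background across the 4 libraries, the strongest start site region of each gene gave 201 ± 12.0 for KLF16 (SD, n = 4), 187 ± 13.5 for KLF10, 181 ± 10.6 for KLF13, 131 ± 20.6 for KLF9, 125 ± 15.3 for KLF3, 124 ± 13.2 for KLF6, 119 ± 4.09 for KLF1, 90.7 ± 12.5 for KLF4 and 27.4 ± 3.77 for KLF2. KLF17 had none. Neighbors from KLF16 to KLF13 overlapped in range, as did those from KLF9 to KLF1, while KLF13 lay above KLF9, KLF1 above KLF4 and KLF4 above KLF2 in every library.

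Away from start sites, the induced genes held a few further regions called in every library. KLF9 +16.2 kb, in an intron, had moderate pileups of 47, 70, 43 and 61 but fold enrichments of 14.4, 15.2, 14.0 and 15.5, which ranked between 90.6 and 96.5. KLF9 −4.8 kb, between genes, showed the opposite combination, with pileups of 101, 120, 90 and 90 and fold enrichment ranks from 49.5 to 58.1, and the local background there was 10.9 to 12.3 times the genome-wide level against 2.23 to 3.40 at KLF9 +16.2 kb. KLF6 −19.0 kb, with 2 AGATAA words, had pileups of 32, 37, 23 and 46. KLF2 −8.8 kb, inside the non-coding gene KLF2-DT, had 37, 34, 27 and 27, and KLF10 −20.5 kb had 26, 22, 20 and 21. KLF2 +46.9 kb, in an intron of EPS15L1, had 19, 28, 20 and 21, and KLF6 +39.6 kb, between genes, was called only in PBS replicate 1, with 11, and SCF replicate 2, with 9.

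KLF3, a repressor that KLF1 itself is known to activate, had a promoter region, KLF3 −0.2 kb, with pileups of 127 and 157 with PBS and 128 and 122 with SCF. Over background these were 121 and 105 against 136 and 138, higher in both SCF libraries, as were 36.1% of all regions on this scale. After the median shift of all regions was removed, the log2 difference was 0.12 ± 0.15 (SE). Its intronic region KLF3 +3.1 kb (50, 68, 50 and 51) holds a CACCC and a GATA word. KLF3 +8.8 kb had pileups of 45, 82, 45 and 43, and KLF3 +20.8 kb was called only in PBS replicate 1, with 11. KLF13 −0.4 kb had 180, 263, 185 and 159, and regions at 2 start sites further inside the KLF13 gene, KLF13 −0.3 kb and KLF13 −0.5 kb, had lower pileups of 59, 62, 57 and 67 and of 35, 55, 33 and 35. KLF16 −0.4 kb had 203, 283, 203 and 183, the strongest start site region in the set by its mean over background. A region at a start site inside the gene, KLF16 −0.2 kb, was called only in PBS replicate 2, with a pileup of 70, which ranked at 76.5, but a fold enrichment of only 2.10. KLF16 −34.2 kb, between genes, had the second highest mean fold enrichment rank of the set, 90.7, with pileups of 72, 67, 56 and 77, and KLF16 −41.8 kb, at the start of SCAMP4 and ADAT3, had 100, 111, 124 and 87.

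**Figure D3:**
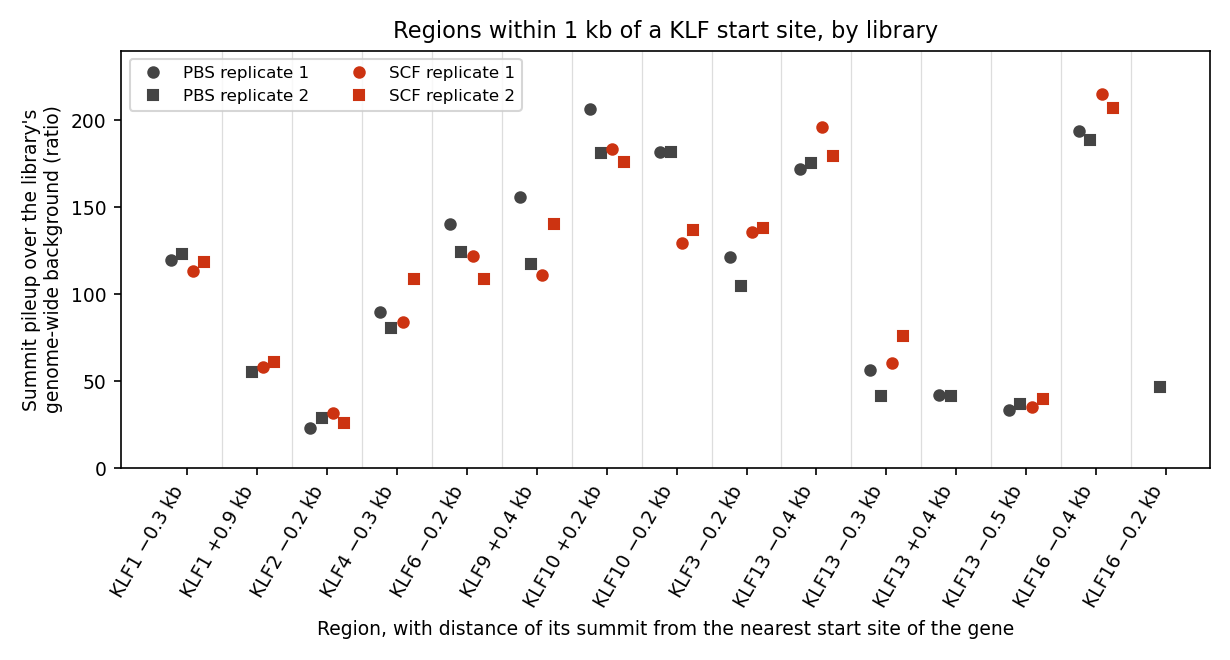
The y axis gives the summit pileup divided by the library's genome-wide background for each of the 15 regions within 1 kb of a KLF start site (x axis), with 1 point per library and no point where the library did not call the region. PBS points are dark and SCF points red, and the gap between them is widest at KLF10 −0.2 kb, where PBS lies at 182 in both libraries and SCF at 129 and 137.

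KLF17 (ENSG00000171872, chromosome 1, 44584493 to 44600812, plus strand) differed from the other members. No peak had its summit inside the gene in any of the 4 libraries, and the summit nearest to a start site was 25.0 kb away. The lists thus held no summit at the intronic element that the study describes as Kit-activated. The reason for this difference was not tested. Both regions in its window were called only in PBS replicate 2, the library with the highest background and so, by that estimate, the deepest. KLF17 −29.0 kb had a pileup of 13 and a fold enrichment of 4.92, and KLF17 −25.0 kb (44559423 to 44559755) had 11 and 4.69, which ranked at 28.7 and 24.2. Both lay in introns of the non-coding gene ENSG00000230615. The window of KLF17 −25.0 kb holds 3 GATA words, of which 1 belongs to an E-box–GATA composite. Both stood at only 8.67 and 7.33 times background, and no order between treatments was read from calls in a single library.

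The comparison of SCF with PBS asked whether acute Kit signaling changed accessibility at these loci. SCF-only regions, called in both SCF libraries but in no PBS library, numbered 0 of 68 (1.65% of all regions were SCF-only). PBS-only regions, defined the other way round, numbered 2 of 68 (2.94%, where 2.37% of all regions were PBS-only). A rank gain, in which both SCF libraries ranked at least 10 points above both PBS libraries by fold enrichment, was found for 0 of 46 regions (2.55% of all 22398 regions called in all 4 libraries), and a rank loss for 0 of 46 (3.04%). With 2 libraries per group these calls have no replicate test. The counts rested on single libraries. Without PBS replicate 1 there were 0 SCF-only and 6 PBS-only regions at the KLF genes (0.00% and 8.96%, against 3.11% and 11.6% of all regions). The counts were 3 and 3 without PBS replicate 2 (4.62% each, against 4.96% and 7.86%), 3 and 4 without SCF replicate 1 (4.41% and 5.88%, against 11.1% and 4.61%) and 0 and 3 without SCF replicate 2 (0.00% and 4.62%, against 6.43% and 6.97%). Rank gains and losses numbered 3 and 4 of 49 without PBS replicate 1 (6.12% and 8.16%, against 6.44% and 10.8% of all regions) and 2 and 3 of 46 without PBS replicate 2 (4.35% and 6.52%, against 10.4% and 7.19%). They numbered 7 and 1 of 47 without SCF replicate 1 (14.9% and 2.13%, against 11.2% and 8.26%) and 0 and 3 of 48 without SCF replicate 2 (0.00% and 6.25%, against 5.94% and 14.4%). Fewer libraries have to agree when 1 is left out.

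The PBS-only regions were weak by fold enrichment. KLF13 +0.4 kb, in the gene just past one of its start sites, had pileups of 44 and 62, fold enrichments of 2.35 and 2.30, and ranks of 0.122 and 0.262, with a local background 17.4 and 17.6 times the genome-wide level. KLF16 −21.0 kb, at the start of ABHD17A, a gene for a depalmitoylating enzyme, had pileups of 16 and 22, fold enrichments of 2.85 and 2.74, and ranks of 0.81 and 1.04. Neither was PBS-only when peaks were required to have a −log10 q of at least 5.

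In the limma test on log2 fold enrichment, adjusted by Benjamini-Hochberg over all 22398 regions, no KLF region was higher (0 of 46, background 0.00%) or lower (0 of 46, background 0.00%) with SCF. The lowest adjusted p was 0.745. At an unadjusted p below 0.05, 787 of all regions were higher (3.51%) and 748 lower (3.34%), but 0 KLF regions in either direction. The median difference, SCF minus PBS, was 0.05 on the log2 scale over the 46 regions, 0.11 at KLF1, 0.02 at the induced genes and 0.04 at KLF3, KLF13 and KLF16, beside a median of 0.00 over all regions. Standard errors of single regions ranged from 0.11 to 0.29.

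At the KLF1 promoter the log2 difference was −0.16 ± 0.20 (SE), with a 95% interval from −0.60 to 0.27 and an adjusted p of 0.941 by limma. The interval for KLF1 +1.9 kb ran from −0.12 to 0.64. Both KLF1 regions separated the groups by rank, with the promoter higher in PBS by 1.13 points and the intronic region higher in SCF by 1.54 points. Of all regions called in all 4 libraries, 19.3% were higher in both PBS libraries and 16.0% in both SCF libraries by this rank. The other promoters had intervals of similar width, from −0.58 to 0.42 at KLF2, −0.13 to 0.47 at KLF4, −0.41 to 0.23 at KLF6, −0.45 to 0.30 at KLF9, −0.15 to 0.58 at KLF3, −0.33 to 0.35 at KLF13 −0.4 kb and −0.38 to 0.36 at KLF16 −0.4 kb. Each interval describes 1 region before adjustment and is not a detection limit. After adjustment over all 22398 regions, limma called no region in either direction, with a lowest adjusted p of 0.437. The smallest change that 2 libraries per group could detect was not tested.

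**Figure D4:**
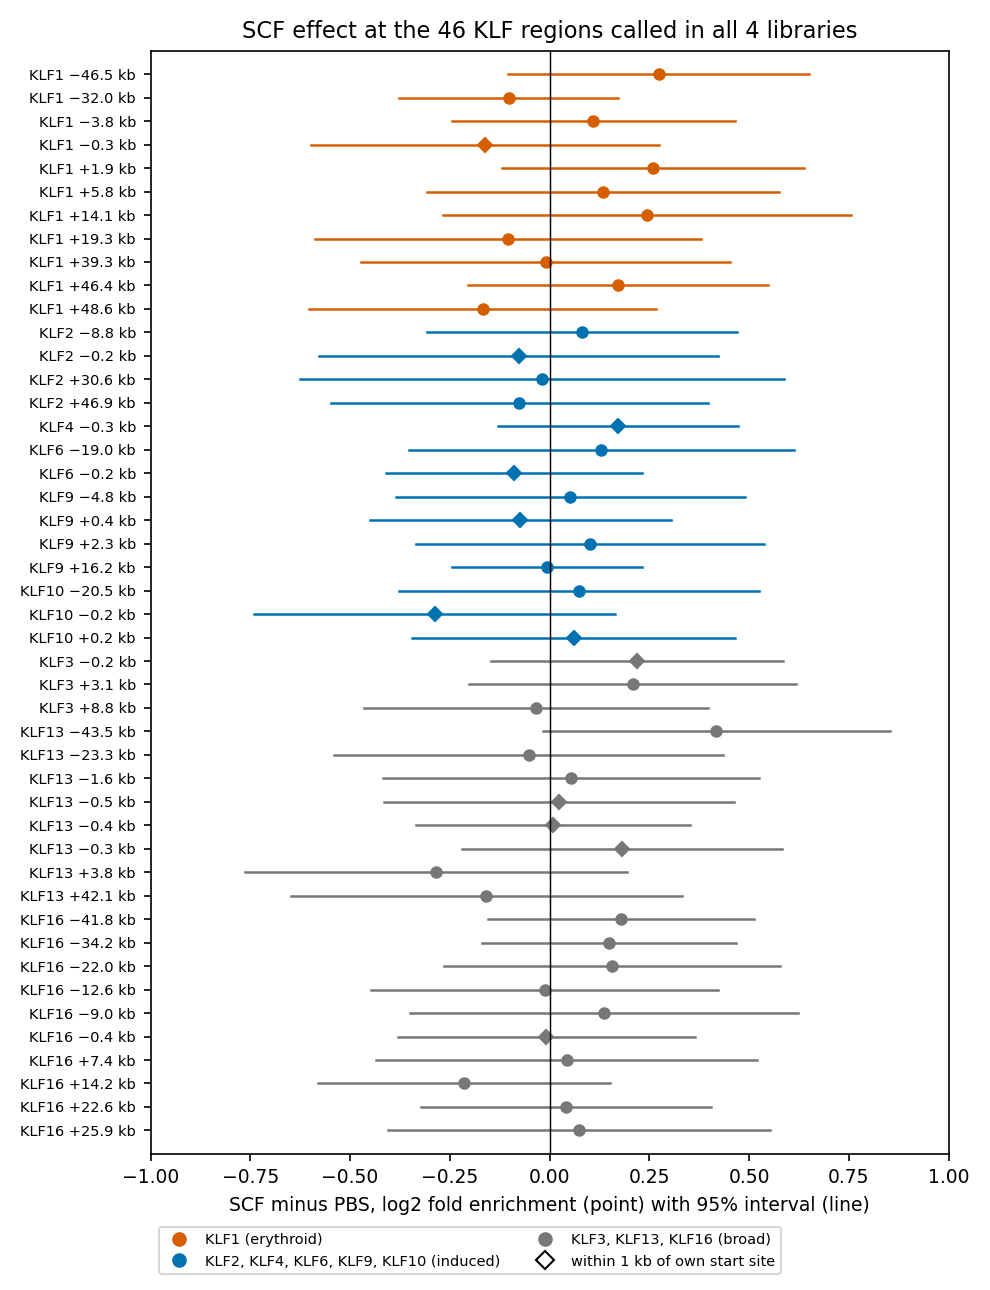
Each row is 1 of the 46 regions called in all 4 libraries, with the limma estimate of SCF minus PBS on log2 fold enrichment as a point and its 95% interval as a line (x axis). Every interval includes 0, and the point farthest from 0 is KLF13 −43.5 kb at 0.42.

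The regions with the largest differences were KLF13 −43.5 kb and KLF10 −0.2 kb. KLF13 −43.5 kb, between genes and with 1 GATA word, had pileups of 14 and 25 with PBS and 26 and 20 with SCF. Its fold enrichment rank was 38.7 and 57.8 with PBS and 66.2 and 65.3 with SCF, so the groups did not overlap (SCF was higher in this way in 16.0% of all regions). The log2 difference was 0.42 ± 0.20 (SE, adjusted p = 0.745 by limma). In an intron of the same gene, KLF13 +3.8 kb had pileups of 37 and 51 with PBS and 30 and 23 with SCF and a log2 difference of −0.29 ± 0.22 (SE).

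KLF10 −0.2 kb (chromosome 8, 103667693 to 103668661), just upstream of the KLF10 start site, moved the other way. Its pileup was 190 and 273 with PBS and 122 and 121 with SCF, or 182 and 182 against 129 and 137 times background, a ratio of the SCF to the PBS mean of 0.731. The fold enrichment rank was 52.3 and 58.8 with PBS and 37.3 and 43.1 with SCF, a gap of 9.21 points that fell short of a rank loss. By limma the log2 difference was −0.29 ± 0.21 (SE, adjusted p = 0.853) on fold enrichment and −0.61 ± 0.14 (SE, adjusted p = 0.569) on pileup over background, the latter after removal of the median shift of all regions, 0.15 higher with SCF. The local background at this region was 23.8 and 23.1 times the genome-wide level with PBS and 20.1 and 21.3 with SCF, and so lower with SCF as well. The neighboring region KLF10 +0.2 kb, at a start site further inside the gene, had a log2 difference of 0.06 ± 0.19 (SE) in fold enrichment and, after the same removal, −0.26 ± 0.14 (SE) in pileup over background.

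Fold enrichment and pileup over background gave different splits between treatments. By fold enrichment rank, 4 of 46 KLF regions were higher in both SCF than in both PBS libraries (16.0% of all regions were) and 8 were higher in both PBS libraries (19.3%). By pileup over background, 18 were higher in both SCF libraries (36.1%) and 5 in both PBS libraries (6.71%), on a scale where the median of all regions was 0.15 higher with SCF (log2). The 18 included 6 of 11 regions at KLF1 and 11 of 21 at KLF3, KLF13 and KLF16, but 1 of 14 at the induced genes. After the median shift was removed, limma on this scale called 0 of 46 regions, and 2 had an unadjusted p below 0.05, both lower with SCF, where 3.34% of all regions were. They were KLF10 −0.2 kb (above) and KLF6 −0.2 kb, with pileups over background of 141 and 124 with PBS and 122 and 109 with SCF and a log2 difference of −0.36 ± 0.15 (SE, adjusted p = 0.668 by limma).

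The number of KLF peaks per library was 58.5 ± 3.54 with PBS and 55.5 ± 0.707 with SCF (SD, n = 2), a difference of −3.0 (two-sided exact permutation test, p = 0.667, with 0.333 the smallest p that 2 against 2 libraries allow). The difference was −5.5 without PBS replicate 1 and −0.5 without PBS replicate 2.

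Words of factors known to act downstream of growth factor receptors or in erythroid cells were counted in the windows of the 68 regions. AP-1 was in 4 of 68 windows (5.88%, against 8.43% of the windows of all regions), EGR in 5 (7.35% against 3.80%), GATA in 12 (17.6% against 25.4%), CACCC in 13 (19.1% against 12.4%), the E-box–GATA composite in 4 (5.88% against 5.02%), ETS in 2 (2.94% against 1.46%) and CRE in 0 (against 0.682%). At KLF1 the 13 windows held 0 GATA, 0 AP-1, 1 CACCC and 1 EGR word, and KLF1 had the nearest coding start site for only 3 of them. A GATA word was in 6 of 19 windows at the induced genes and in 5 of 34 at KLF3, KLF13 and KLF16, beside 25.4% of all windows. Not all of those 6 regions were called in every library. Of the 4 AP-1 windows 1, KLF13 −23.3 kb, was called in all 4 libraries, with pileups of 22, 26, 19 and 21. KLF16 +25.9 kb, in an intron of REXO1, held both E-box–GATA words shown above, CTGGACAAAAAAGATAA and CTGCGGCATGAGATAA, and had pileups of 59, 72, 65 and 57. The windows were GC-rich, with a median of 62.7% against 54.2% in all regions and 73.1% in the 15 regions at the members' own start sites, where the KLF1 promoter had the lowest value, 53.2%. These words differ in base composition, and its part in their frequency was not tested.

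Of 16 further genes of the KLF and SP families (KLF5, KLF7, KLF8, KLF11, KLF12, KLF14, KLF15 and SP1 to SP9), 13 had a region within 1 kb of a start site in all 4 libraries and 3 in some, compared with 9 of the 10 members and none at KLF17. Among the 16 further genes, 0 start site regions were SCF-only or PBS-only (1.65% and 2.37% of all regions). A rank gain was found at 0 and a rank loss at 1, at KLF8 (2.55% and 3.04% of all regions called in all 4 libraries). The highest level at the KLF8 start sites was only 12.4 and 12.7 times background with PBS and 10.6 and 10.2 with SCF.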

How the data were processed

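Accessibility was measured by ATAC-seq, which reads open chromatin from where the transposase Tn5 can insert sequencing adapters. The deposited files are 1 peak list per library in narrowPeak format. The authors used the ENCODE ATAC-seq pipeline, and their processing notes name bcl2fastq, Bowtie2 and SAMtools. The methods name hg38, whereas the series description and the header of each list name hg19, so coordinates were read as hg19 (GRCh37), and all peaks ended inside the chromosomes of that build. The peak caller and its settings are not given in the sources used here. The deposited lists hold a whole-number score, which was not used, a fold enrichment (the ratio of the summit pileup to the local background) and each peak's −log10 p-value and −log10 q-value. The largest q-value in the authors' lists was 0.0497. The replicate numbers in peak names differ from the labels, which were followed.

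A whole-number pileup and a local background that together give the deposited fold enrichment (pseudocount 1) and, as a Poisson probability, the −log10 p were recovered for 100.0% of peaks (tolerance 0.0001). Relative depth was taken from the lowest local background divided by the length of the library's shortest peak. It was 1.00, 1.42, 0.883 and 0.843 in PBS replicates 1 and 2 and SCF replicates 1 and 2. Total read numbers are unknown. Genes came from GENCODE release 44 on GRCh37. Regions called in all 4 libraries were tested with limma 3.58.1 (R 4.3.3, eBayes with a variance trend) on log2 fold enrichment centered on each library's median, because the values are ratios and not counts. The main fit had no replicate term, since the study's methods name none for comparing treatments. The fit was tested on simulated data. The number of peaks was compared by an exact permutation test. Words were counted in 201 bp around each summit with Python 3.11.15 and pysam 0.24.0.

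Regions named were those within 1 kb of a member's start site, those with any call, and for each member the 2 of highest mean rank beyond 1 kb from its own start sites. KLF1 +1.9 kb, KLF3 +3.1 kb, KLF9 +2.3 kb, KLF13 −23.3 kb, KLF16 +22.6 kb and KLF16 +25.9 kb fall outside this rule and were chosen after their values were seen. A marker gene and the sequences of 2 regions are not reported here. Members and lists were chosen with earlier results of these data known. The alternatives tried were a window of 15 kb, merging by summits within 250 bp, a stricter q-value, equal peak numbers, other rank gaps, other scalings, a replicate block and leaving out each library.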

Additional observations from a re-analysis of the deposited data

How the results depend on the processing

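The limma counts of 0 KLF regions higher and 0 lower with SCF held under every alternative, with lowest adjusted p from 0.569 (pileup over background) to 0.828 (window of 15 kb). Under each left-out library they were 0 to 0, although over all regions the test called 9 higher and 5 lower without PBS replicate 1, 8 and 1 without PBS replicate 2, and 1 and 2 without SCF replicate 1. The lone library of an arm was then assumed to vary like the others. The count of regions called in all libraries, 46, fell to 29 with a window of 15 kb and to 26 where only regions nearest to a member's start site were kept, an alternative added after seeing the data, since both take fewer regions, and was 46 to 49 with 1 library left out. PBS-only regions went from 2 to 1 under these settings and with equal peak numbers, and to 0 at a −log10 q of at least 5 (3 to 6 with 1 library left out). SCF-only regions went from 0 to 1 with equal peak numbers (0 to 3 with 1 library left out). Rank gain went from 0 to 2 with a gap of 5 points (0 to 7 with 1 library left out), and rank loss from 0 to 3 with that gap and to 1 at the stricter q-value or with equal peak numbers (1 to 4 with 1 library left out). Beyond fewer regions, peaks or libraries, the cause was not tested. The difference in peak number was −5.5 to −0.5 with 1 library left out. Whether libraries of equal replicate number are paired is not known. Deviations of same-numbered libraries from their group means correlated at 0.0121, but 2 libraries per group give only 1 difference each, which cannot exclude a pairing. With a replicate block the limma counts stayed at 0 and the peak difference at −3.0, while the lowest adjusted p over all regions by limma went from 0.437 to 0.0612. Depth limits the weak regions, since peaks under a pileup of 5 to 7 are not listed.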
